A study of Homo sapiens with 9 samples.

Results

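A set of 10 genes for enzymes of glycolysis was examined for RNA polymerase II in the human embryonic kidney line HEK293T: PGK1, GAPDH, ENO1, PKM, LDHA, LDHB, ALDOA, TPI1, PGAM1 and GPI. They are 10 of 20046 protein-coding genes of the GENCODE annotation, version 44, on the GRCh38 assembly, and were chosen by name. The choice was made with earlier results of these data known. A peak was assigned to a gene when its summit, the position of highest signal, was at most 1000 bp from a transcript start of the annotation or fell inside the gene. The cells carried a control shRNA (genotype wildtype), an shRNA against U2AF1 (a splicing factor that recognises the 3′ splice site) or an shRNA against DHX9 (a helicase that unwinds RNA and DNA structures). POLR2A, the catalytic subunit of RNA polymerase II, was immunoprecipitated from crosslinked chromatin and the bound DNA was sequenced (ChIP-seq), with 2 ChIP replicates and 1 input sample per condition. Each condition is represented by 1 deposited peak list, with 2757 peaks for the control shRNA, 1730 for U2AF1 knockdown and 4443 for DHX9 knockdown. No value below therefore has a replicate error, and no difference between lists could be tested against the spread between replicates. The labels assign each list to both replicates, but the control peaks are named with a "-1", so whether that list rests on 1 library or on 2 is unknown. The library depths are unknown. How the shRNAs were delivered, and how many clones each line holds, is not given in the sources used here.

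Glycolysis splits glucose into pyruvate and yields ATP and NADH. Its genes are housekeeping genes: nearly all growing cells transcribe them, and many of them are raised further by the hypoxia-inducible factors, which bind DNA at a short core that contains CGTG. Polymerase typically accumulates just downstream of the start of an active gene, where it pauses before elongation, so POLR2A peaks tend to mark start sites and to be weak over gene bodies. PGK1 encodes phosphoglycerate kinase, which makes the first ATP of the payoff phase of the pathway.

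Peaks stood at 6 of the 10 genes under control shRNA, at 6 after U2AF1 knockdown and at 7 after DHX9 knockdown. By the same rule a peak stood at 13.2% of all protein-coding genes under control shRNA, at 7.34% after U2AF1 knockdown and at 22.2% after DHX9 knockdown. PGK1, GAPDH, TPI1, PKM and LDHA had a peak in all 3 lists, 5 of 10 genes, against 4.34% of all protein-coding genes. The genes were chosen with earlier results of these data known, so these counts are a description and no test of an excess. When each list was cut to its 1730 most significant peaks, 4 of the 10 genes were left after DHX9 knockdown (PGK1, TPI1, PKM and GAPDH). LDHA and ALDOA fell just past that cut, at ranks 1797 and 1802 by −log10 p. At the same cut 5 genes were left under control shRNA and 6 after U2AF1 knockdown, and 4 were in all 3 lists. The share of all protein-coding genes at this cut was not computed, so these counts have no background beside them. ALDOA had a peak in both knockdown lists and not under control shRNA. ENO1 had one under control shRNA alone, and PGAM1 after DHX9 knockdown alone. LDHB and GPI had none in any list. Every one of the 19 peaks lay at a transcript start, and 0 lay in a gene body away from a start. With a window of 1000 bp around every annotated start, much of a short gene counts as a start. The same share over all protein-coding genes was not computed, so this count is not read as a trait of these genes. A gene without a peak is a gene at which the caller's threshold was not passed, which does not show that polymerase was absent.

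PGK1 stood far above the other enzymes in each list. The authors' fold enrichment, a ratio of signal to background at the summit, was 42.3 for PGK1 under control shRNA, 111.9 after U2AF1 knockdown and 111.8 after DHX9 knockdown. These values took ranks 4 of 2757, 2 of 1730 and 1 of 4443. By significance PGK1 was the first peak of every list, with a −log10 p of 2004 under control shRNA, where the next peak had 1417. After U2AF1 knockdown it was 2580 against 1356 for the next peak, and after DHX9 knockdown 2258 against 1587. By fold enrichment the next of the 10 genes in every list was TPI1, whose fold enrichment was lower than that of PGK1 by a factor of 5.55 under control shRNA, 10.1 after U2AF1 knockdown and 8.64 after DHX9 knockdown. Fold enrichment depends on the depth and background of each library, so the ratios are within a list, and their order across lists is not a result. PGK1 was singled out with these ranks already known, so they are a description.

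**Figure D1:**
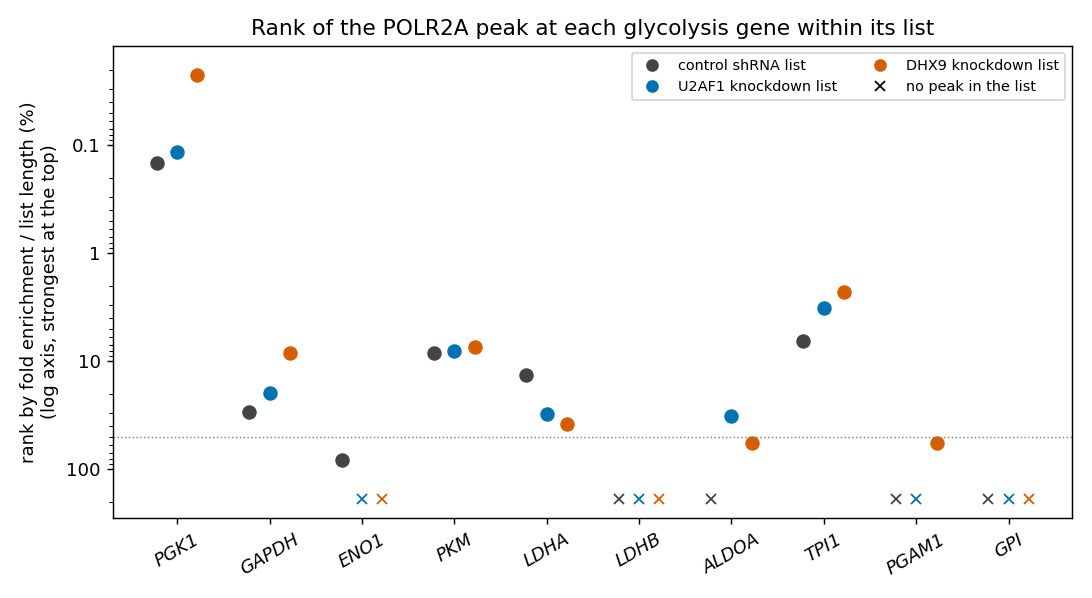
Rank by fold enrichment divided by the length of the list, in percent on a log axis with the strongest peak at the top, for the highest peak of each gene (points) in the 3 lists. Crosses below the scale mark a gene without a peak in that list, and the dotted line marks the middle of a list at 50%. PGK1 sits between 0.0225% and 0.145% in every list, and the other genes lie between 2.30% and 81.1%.

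The other enzymes had peaks of ordinary to moderately high strength. Their median rank, as a share of the list, was 13.5% under control shRNA (5 genes), 19.5% after U2AF1 knockdown (5 genes) and 23.1% after DHX9 knockdown (6 genes). When only peaks whose −log10 q reached 5 were ranked, the medians were 15.3% under control shRNA, 32.7% after U2AF1 knockdown and 13.0% after DHX9 knockdown. That limit took ENO1 (−log10 q of 2.82) out of the control median and PGAM1 (4.71) out of that of DHX9 knockdown. The order of the lists is thus not stable, and the genes in the medians were not the same. The same median over all protein-coding genes with a peak, without that limit, was 45.4%, 42.4% and 45.7%. A small share means a strong peak, so these enzymes stood above the middle gene of each list, except ENO1 under control shRNA and ALDOA and PGAM1 after DHX9 knockdown.

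The PGK1 gene spans 77910739 to 78129295 on chromosome X, plus strand, and its MANE transcript (the reference transcript agreed by Ensembl and RefSeq) starts at 78104248. The peak ran from 78103797 to 78104351 under control shRNA and from 78103795 to 78104352 in both knockdown lists. Its widths were 555, 558 and 558 bp, within the widest 12.1%, 11.0% and 13.5% of the 3 lists in that order. The left edge differed by at most 2 bp between the lists and the right edge by at most 1 bp. Of 799 peaks that were matched in pairs across all lists without ambiguity, PGK1 had the smallest edge difference. The median of these 799 peaks was 162 bp, and the next smallest value was 9 bp, at SNHG25. Among the 208 of them in the strongest 10% of the control list the median was 178.5 bp, and PGK1 was the single peak with an edge difference of at most 10 bp. The summit at PGK1 moved more than its edges did, over 39 bp, against a median of 61 bp. The edges thus coincided at PGK1 to a degree that was not reached at any other of these peaks.

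**Figure D2:**
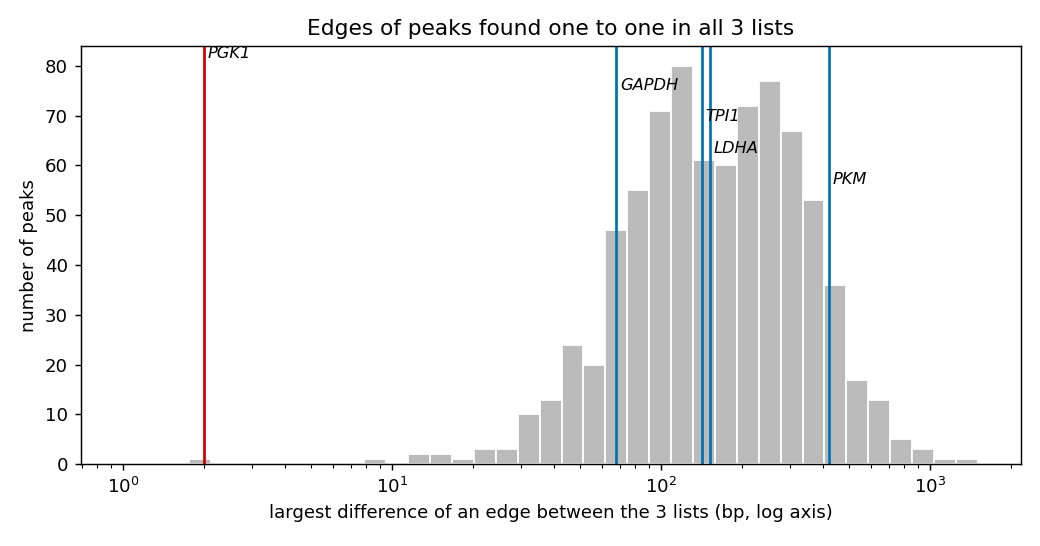
Number of peaks (bars) by the largest difference of an edge between the 3 lists, in bp on a log axis, for 799 peaks matched in all lists. Lines mark the 5 glycolysis genes among them: PGK1 at 2 bp, GAPDH at 68 bp, TPI1 at 141 bp, LDHA at 152 bp and PKM at 420 bp.

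At the other 4 genes with a peak in all lists the edges differed by 68 to 420 bp. GAPDH had an edge difference of 68 bp, below which 12.6% of the 799 peaks lay. TPI1, at 141 bp, and LDHA, at 152 bp, were near the middle, with 44.2% and 47.8% of peaks below them. PKM had 420 bp, with 91.6% below. This came from the upstream side, where the control peak began 510 bp before the MANE start and the U2AF1 knockdown peak 90 bp before it.

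The PGK1 peak also lay in a different place from the others. Its summit was upstream of the MANE start in each list, at -162 bp under control shRNA, -123 bp after U2AF1 knockdown and -139 bp after DHX9 knockdown, and 81.2% to 81.3% of its width was upstream. Of the 16 peaks at the other genes 15 had their summit downstream of the MANE start, between 27 and 222 bp, and the median share of their width that lay upstream was 30.2%. The exception was the ALDOA peak of the DHX9 knockdown list. An upstream summit is not rare in these lists. Among peaks within 1000 bp of the MANE start of a protein-coding gene, 21.6% under control shRNA, 20.9% after U2AF1 knockdown and 23.0% after DHX9 knockdown had a summit at least as far upstream as that of PGK1, peaks of neighbouring divergent genes included. No other annotated gene has a start within 1000 bp of the PGK1 summits.

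**Figure D3:**
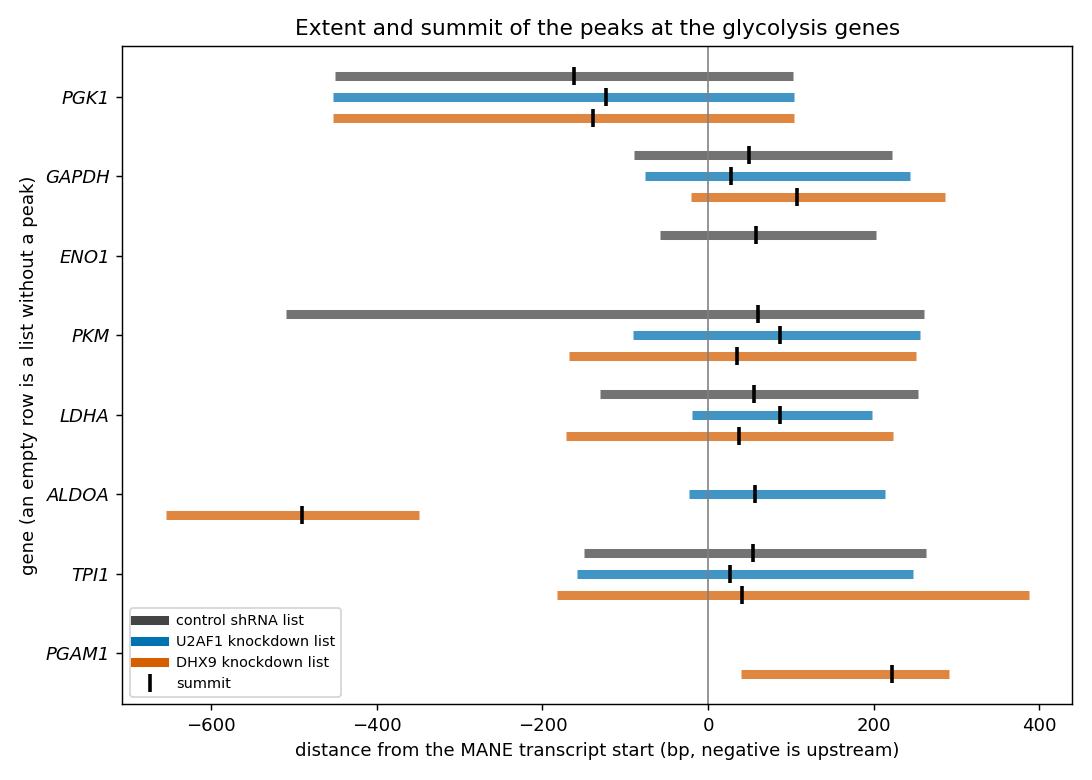
Extent of each peak (bars) and its summit (black ticks) by distance from the MANE start in bp, for the 8 genes with a peak in any list, coloured by list, with an empty row where a list has no peak. The PGK1 bars coincide to within 2 bp, from -453 to 104 bp, with summits left of the start. The bars of the other genes mostly straddle the start with summits to its right, and the ALDOA bar of the DHX9 knockdown list lies wholly upstream.

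The background at the PGK1 summit was raised as well. Whether this background came from the input or from the ChIP reads is unknown, since the use of the input is not given. It is therefore not read as a separate trait of the locus. A fold enrichment and a p-value together fix the number of fragments piled up at a summit and the background it was compared with, if the caller used a Poisson test and added 1 to both terms of the ratio. The pileup recovered in this way was whole at all peaks of both knockdown lists. The control pileup came out fractional, as a scaled value would. At PGK1 the recovered pileup was 1649 on the control scale, 1561 fragments after U2AF1 knockdown and 1362 after DHX9 knockdown. At TPI1 it was 59.97, 38 and 36, and at PKM 67.0, 34 and 44. Ranked by pileup, PGK1 stood at 0.798% of the control list, 0.578% of the U2AF1 knockdown list and 0.0225% of the DHX9 knockdown list. The background at PGK1 was 38 under control shRNA, 12.96 after U2AF1 knockdown and 11.2 after DHX9 knockdown. These values were 5.62, 4.41 and 4.87 times the median background of the peaks of the same list. At the other glycolysis genes the background lay between 0.960 and 1.63 times the median under control shRNA, between 0.862 and 1.40 times after U2AF1 knockdown and between 0.809 and 1.83 times after DHX9 knockdown. The ranges did not include the PGK1 value in any list.

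Peaks with so high a background are mostly weak. Under control shRNA 170 other peaks had a background at least as high as that of PGK1, with a median fold enrichment of 1.77 and a highest of 15.7. After U2AF1 knockdown there were 246, with a median of 2.38 and a highest of 17.6. After DHX9 knockdown there were 226, with a median of 2.28 and a highest of 47.1. The fold enrichment of PGK1 exceeded the highest of them in each list. Fold enrichment has the background in its divisor, which lowers it where the background is high. Counting PGK1 itself, only 4 peaks of the control list reached its fold enrichment, 2 after U2AF1 knockdown and 1 after DHX9 knockdown. These ranks were known beforehand, so the comparison adds little to them.

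**Figure D4:**
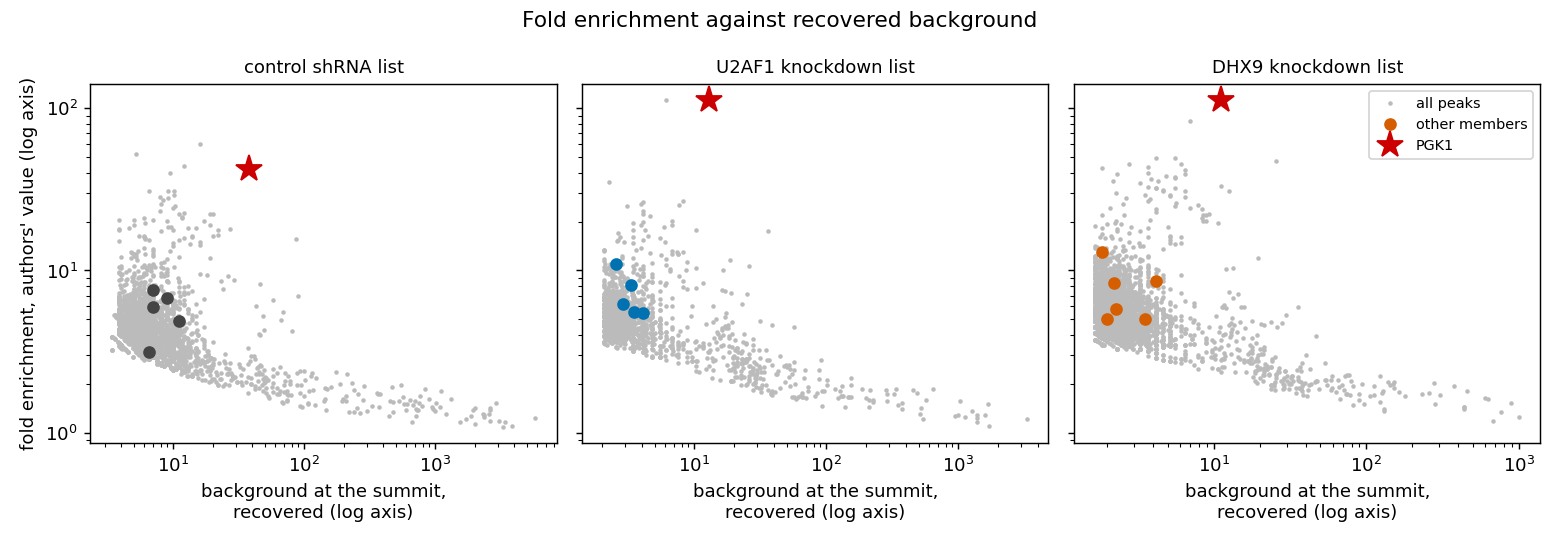
Authors' fold enrichment against the background recovered at the summit, both on log axes, for every peak (grey), PGK1 (star) and the other glycolysis genes (coloured points), with a panel for each list. The other genes fall inside the dense cloud of peaks at low background, and PGK1 lies to the right of that cloud, at a background of 38, 12.96 and 11.2 in the order of the panels, and above the other peaks at such a background.

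The human PGK1 promoter is also a common part of viral and plasmid vectors, where it drives a selection marker or a transgene. The vector of the shRNAs is not given in the sources used here. Reads from a vector copy of this promoter and from the gene on chromosome X cannot be told apart in a peak list. The fold enrichment, ranks, edges, position, background and significance of the PGK1 peak are therefore given as measured. The part of additional copies in them was not tested. Within the chromosomes of GRCh38 the sequence under the PGK1 peak had 0 further alignments of at least 50 bp with at least 90% identity, so no second copy of that size was found in the reference.

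The sequence before the PGK1 start is shown because the summits of all lists fall in it. It is chrX:78103948-78104247 of GRCh38, the 300 bp before the MANE start, 5′ to 3′ on the plus strand. Capitals mark 4 short motifs searched on both strands: ACGTG, a core of hypoxia response elements, CCAAT, bound by NF-Y, GGGCGG, bound by SP1, and TATAAA, the TATA box.
PGK1: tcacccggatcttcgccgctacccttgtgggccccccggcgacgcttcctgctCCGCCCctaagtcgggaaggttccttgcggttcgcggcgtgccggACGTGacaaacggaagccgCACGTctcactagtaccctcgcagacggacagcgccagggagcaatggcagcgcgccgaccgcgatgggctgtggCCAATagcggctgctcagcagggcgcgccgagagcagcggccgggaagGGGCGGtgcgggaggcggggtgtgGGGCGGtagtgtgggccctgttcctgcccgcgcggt

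It held ACGTG 2 times, at -202 to -198 and, on the other strand, at -183 to -179 from the start, both upstream of the 3 summits. CCAAT stood at -108 to -104, and GGGCGG occurred 3 times, at -247 to -242, at -60 to -55 and at -36 to -31. TATAAA had no match. In windows of this length before all 19061 MANE starts of protein-coding genes, at least 1 match was found in 23.7% for ACGTG, 37.9% for CCAAT, 61.7% for GGGCGG and 10.9% for TATAAA. Of the 10 glycolysis genes 5 had ACGTG, PGK1 and LDHA among them, 5 had CCAAT, 8 had GGGCGG and 2 had TATAAA. A match describes the letters and does not show that a factor binds there.

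The windows before the starts of both lactate dehydrogenase genes are shown to set a gene that had a peak in every list (LDHA) beside a gene that had none (LDHB). Each is the 150 bp before the MANE start, on the strand of the gene, with the same motifs in capitals. Their positions are chr11:18394413-18394562 (plus) for LDHA and chr12:21657843-21657992 (minus) for LDHB.
LDHA: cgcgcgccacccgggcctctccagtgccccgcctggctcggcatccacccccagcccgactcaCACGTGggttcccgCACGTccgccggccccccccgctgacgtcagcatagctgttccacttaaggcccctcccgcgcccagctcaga
LDHB: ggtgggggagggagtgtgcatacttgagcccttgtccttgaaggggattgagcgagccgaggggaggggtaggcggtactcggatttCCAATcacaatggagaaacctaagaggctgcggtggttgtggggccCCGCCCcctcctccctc

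LDHA held 3 matches of ACGTG in these 150 bp, counted over both strands, so that its palindromic CACGTG counts as 2, and no GGGCGG. LDHB held 1 CCAAT and 1 GGGCGG in its 150 bp. Over 300 bp, the length used for the shares above, LDHA held 5 matches of ACGTG, and LDHB also held 2 of TATAAA. In the full 300 bp the counts of GGGCGG were 5 at TPI1, 4 at PKM, 4 at ALDOA and 16 at PGAM1, where matches can overlap, and 1 at GPI. Of the 4 motifs, none was present at all 5 genes with a peak in every list and missing from both LDHB and GPI.

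TPI1 encodes triosephosphate isomerase, which interconverts both triose phosphates that aldolase releases. By fold enrichment its peak was the strongest of the 10 genes after PGK1. By −log10 p PKM stood just above it under control shRNA, at rank 222 against 225. It ran from 6867381 to 6867794 on chromosome 12 under control shRNA, at 7.62 and rank 180 by fold enrichment. After U2AF1 knockdown it ran from 6867373 to 6867778, with 11.0 and rank 56, and after DHX9 knockdown from 6867349 to 6867919, with 12.9 and rank 102. As shares of the list these ranks were 6.53%, 3.24% and 2.30%, and by −log10 p the shares were 8.16%, 6.30% and 3.53%. Summits were at 54, 27 and 41 bp from the MANE start, in the first exon. Between 26.8% and 37.7% of the peak had a similar copy elsewhere in the genome, so part of its reads may be shared.

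PKM encodes pyruvate kinase, which makes the last ATP of the pathway, and lies on chromosome 15 on the minus strand. By fold enrichment its share of the list was similar in all lists, with rank 231 (8.38%) under control shRNA, 140 (8.09%) after U2AF1 knockdown and 326 (7.34%) after DHX9 knockdown. By −log10 p the shares were further apart, at 8.05%, 11.0% and 4.25%. The fold enrichment was 6.80, 8.16 and 8.66. The widths were not alike: the control peak, 72230929 to 72231700, was 772 bp wide, the U2AF1 knockdown peak, 72230934 to 72231280, 347 bp, and the DHX9 knockdown peak, 72230939 to 72231358, 420 bp. The downstream edges, which are the left ones on this strand, agreed to 10 bp.

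GAPDH encodes the dehydrogenase that forms NADH from glyceraldehyde 3-phosphate. It lies on chromosome 12 from 6534512 to 6538374, plus strand. The fold enrichment was 4.89 under control shRNA, 6.20 after U2AF1 knockdown and 8.36 after DHX9 knockdown. The rank share was 29.3% (rank 808) under control shRNA, 19.5% (rank 337) after U2AF1 knockdown and 8.31% (rank 369) after DHX9 knockdown. The control value moved with the measure: by −log10 p GAPDH ranked 389 under control shRNA, or 14.1%, while after U2AF1 knockdown it ranked 444, or 25.7%. The order of these lists at GAPDH therefore reversed between the measures. A stretch of 53 bp of each GAPDH peak had a similar copy elsewhere. The background at the summit was 11 under control shRNA, 1.63 times the median, and 0.976 and 0.971 times the median in the U2AF1 and DHX9 knockdown lists.

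LDHA encodes the lactate dehydrogenase subunit that is typical of cells making lactate. Its rank shares by fold enrichment were in the opposite order to those of GAPDH. Its fold enrichment was 5.97 under control shRNA, 5.55 after U2AF1 knockdown and 5.78 after DHX9 knockdown, with ranks 371 (13.5%), 530 (30.6%) and 1688 (38.0%). By −log10 p the shares were 14.0%, 30.8% and 40.4%, in the same order. The peak ran from 18394433 to 18394816 on chromosome 11 under control shRNA and was narrower after U2AF1 knockdown, 218 bp against 384 bp. LDHB, which encodes the subunit typical of heart, spans 21635342 to 21757857 on chromosome 12 and had no peak in any list.

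ALDOA encodes aldolase A, which splits fructose 1,6-bisphosphate, and lies on chromosome 16. Its peaks in the knockdown lists were at separate places. After U2AF1 knockdown the peak ran from 30065737 to 30065974, with its summit 57 bp downstream of the MANE start in an untranslated exon, a fold enrichment of 5.47 and rank 549 (31.7%). After DHX9 knockdown it ran from 30065105 to 30065411, with its summit at -490 bp, a fold enrichment of 5.04 and rank 2534 (57.0%). These peaks do not overlap, so the gene counts as present in both lists for different positions. A long noncoding RNA on the other strand, ENSG00000274904, also has a start within 1000 bp of both summits.

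ENO1 encodes enolase 1, and its control peak at 8878483 to 8878744 on chromosome 1 was the weakest of the control peaks described here. Its fold enrichment was 3.15, with rank 2235 (81.1%) and a −log10 q of 2.82. An antisense gene, ENO1-AS1, has a start within 1000 bp of the summit. PGAM1 encodes phosphoglycerate mutase 1. Its peak after DHX9 knockdown, at 97426231 to 97426482 on chromosome 10, ranked 2553 (57.5%), with 5.01 as its fold enrichment and a −log10 q of 4.71. It lay wholly downstream of the MANE start, and 76.6% of it had similar copies elsewhere, so the origin of its reads is uncertain. RRP12, on the other strand, has a start within 1000 bp. GPI encodes glucose-6-phosphate isomerase, spans 34359480 to 34402413 on chromosome 19 and had no peak. The presence of ENO1 and PGAM1 thus rests on peaks with a −log10 q under 5.

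The starts of these genes were GC-rich. In the 300 bp upstream the median GC content was 70.3%, from 55.3% at LDHB to 77% at PGAM1, against a median of 62% over all MANE starts. The ratio of observed to expected CpG in the 600 bp around the start was 0.978 at PGK1, higher than at 92.1% of starts, with a median of 0.828 over the 10 genes and 0.770 over all starts. The series concerns R-loops, RNA and DNA hybrids that form more readily where the RNA-like strand is rich in G. The GC skew, (G − C)/(G + C), in the first 500 bp after the start was -0.03 at PGK1, higher than at 24.4% of starts, and 0.05 at the median start. It was positive at GAPDH (0.19), TPI1 (0.17), PGAM1 (0.14), ENO1 (0.13), LDHB (0.12) and LDHA (0.06), and negative at PKM (-0.19), ALDOA (-0.07) and GPI (-0.06). Genes with a peak in all lists thus had skews of either sign.

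Other genes of the pathway were taken from lists of names, chosen with earlier results of these data known. Of 20 genes for other isoenzymes and for earlier steps, 2 had a peak under control shRNA, 1 after U2AF1 knockdown and 4 after DHX9 knockdown, which is near the 13.2%, 7.34% and 22.2% of all protein-coding genes. Many of them, such as PKLR and LDHC, are known for expression in other tissues. PFKL, a phosphofructokinase, had a peak under control shRNA (fold enrichment 4.00, rank 1496) and after DHX9 knockdown (5.90, rank 1574). HK1 and HK2, hexokinases that begin the pathway, had peaks after DHX9 knockdown alone, with fold enrichments of 5.60 and 6.28. The peak assigned to ENO3, a muscle enolase, was in every list, but the start of PFN1, on the other strand, lies within 1000 bp of it.

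Of 19 genes for transport, control of the pathway and entry of pyruvate into mitochondria, 7 had a peak under control shRNA, 3 after U2AF1 knockdown and 7 after DHX9 knockdown, where 13.2%, 7.34% and 22.2% of all protein-coding genes had one. SLC16A1, the lactate transporter MCT1, and MPC1, a subunit of the mitochondrial pyruvate carrier, had a peak in all lists. By fold enrichment SLC16A1 ranked 2002 (72.6%) under control shRNA, 754 (43.6%) after U2AF1 knockdown and 206 (4.64%) after DHX9 knockdown. By −log10 p its shares were 26.0%, 24.6% and 5.94%, so the first of these steps was not seen by that measure. The background at its summit was 2.51 times the list median under control shRNA, 1.86 times after U2AF1 knockdown and 0.959 times after DHX9 knockdown. BSG, the chaperone of that transporter, had a peak in both knockdown lists, with fold enrichments of 6.79 and 11.4, and none under control shRNA. SLC2A1, the glucose transporter GLUT1, PFKFB2 and PDK1 had a peak under control shRNA alone. Starts of antisense or divergent genes lie within 1000 bp of the summits of all of these, so the peaks cannot be given to a strand.

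Processed pseudogenes copy spliced messages and lack the promoter of their parent. The annotation names 104 pseudogenes after the 10 genes, taken here whether processed or not. Of these, 1 had a peak under control shRNA, 0 after U2AF1 knockdown and 0 after DHX9 knockdown. The share of all annotated pseudogenes with a peak was not computed, so this count is not read as low or high. That peak, near TPI1P2 on chromosome 7 (129054704 to 129054951), had a fold enrichment of 3.54 and rank 1940.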

How the data were processed

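POLR2A ChIP-seq peak lists were used, 1 for each of 3 conditions. Per the submitters' processing notes, Bowtie2 2.4.5, MACS2 2.2.7.1, deepTools 3.5.1 and hg38 were used. Peak calling settings, the use of the input and the pooling of replicates are not given in the sources used here. The control list names its peaks with a suffix "-1", which the knockdown lists do not have. The fold enrichment (a ratio), the −log10 p and the −log10 q of each peak are the deposited values of the authors' peak caller.

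Summits were assigned to genes of GENCODE version 44 with a window of 1000 bp around all annotated transcript starts. Ranks, edges and positions (counted from 1) were computed in Python 3.11.15. Peaks were matched across lists where each overlapped exactly 1 peak of each other list by at least 1 bp. Pileup and background at the summit were solved from fold and −log10 p. Agreement for whole pileups was within 0.01 in −log10 p at 100% of peaks in both knockdown lists and at 8.05% under control shRNA. The solver was tested on simulated data. The simulated pileups lay below those of PGK1 in every list, and the simulated backgrounds below that of PGK1 under control shRNA. For scaled pileups only whole backgrounds were simulated, so the test does not cover the control values of PGK1. For the control list the pileup was cut to a whole number inside the p-value, and the background was solved freely. Similar copies were sought with blastn 2.17.0. The genes described were every member and, of the other lists, genes with a peak in any list except PFKFB3, PDHB, DLAT and MPC2. PKLR and LDHC were named as examples without a peak. Members and lists were chosen with earlier results of these data known. One upstream sequence is not reported here. No test was made, since each condition has 1 list.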

Additional observations from a re-analysis of the deposited data

How the results depend on the processing

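Of 51 alternative values, 39 stayed the same and 12 moved, where numbers of genes and the edge difference had to stay within 1.5 times the reported value, and rank shares within its 95% binomial interval over the peaks of the list. That interval treats the peaks as independent and does not measure the spread of a rank or of a median over few genes. The labels therefore sort the values and do not measure how stable they are. With the same number of most significant peaks in each list, 4 of the 10 genes had a peak after DHX9 knockdown, against 7, and 5 under control shRNA, against 6. The share of all protein-coding genes at this cut was not computed. The windows of 500 and 2000 bp, and starts alone, changed no number of genes. Rank by −log10 p placed PGK1 at 0.0363% of the control list, and the other genes at a median of 25.6% of the U2AF1 knockdown list and 25.1% of the DHX9 knockdown list. Keeping peaks whose −log10 q reached 5, the median of the other genes was 15.3% under control shRNA, 32.7% after U2AF1 knockdown and 13.0% after DHX9 knockdown. This limit also took ENO1 out of the control median and PGAM1 out of that of DHX9 knockdown. Rank by recovered pileup, added after seeing the data, placed PGK1 at 0.798% of the control list and 0.578% of the U2AF1 knockdown list, and the other genes at medians of 15.6% under control shRNA, 29.5% after U2AF1 knockdown and 20.5% after DHX9 knockdown. The cause of these moves was not tested. No paired analysis was possible because the deposited data hold a single list per condition, and replicates could not be left out in turn for the same reason.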
